A study of Mus musculus with 15 samples.

Results

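The 10 genes described here encode ETS transcription factors with a known link to ERK signalling, and they were followed in mouse epiblast-like cells (EpiLCs) in which ERK was switched on. They were chosen by name, before any filter on level, from the 52636 Ensembl gene identifiers of the raw count table, and all 10 passed the filter on low counts that left 13451 tested genes. By role they were the activators Etv4, Etv5, Ets1 and Ets2, the ternary complex factors Elk1, Elk3 and Elk4, the repressors Erf and Etv6, and Gabpa, the DNA-binding subunit of the GA-binding protein.

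ETS factors share a winged helix domain that binds DNA around the core GGAA. ERK acts on many of them after translation. It phosphorylates the ternary complex factors, which sit with serum response factor (SRF) on immediate early genes, and it phosphorylates Ets1 and Ets2. It also drives the repressor Erf out of the nucleus and relieves repression of Etv4 and Etv5 by the HMG-box protein Cic. In pluripotent cells Etv4 and Etv5 are known as targets of FGF signalling. The data here are RNA levels and hold no measure of phosphorylation or location.

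The cells were EpiLCs of the line CRAFR26, which carries a c-RAF kinase construct that 4-hydroxytamoxifen (4OHT) induces. They were made from embryonic stem cells over 48 h in N2B27 with bFGF (12 ng/ml), Activin A (20 ng/ml) and the tankyrase inhibitor XAV939 (1 µM), and held for 2 h in the FGF receptor inhibitor PD17 (PD173074, 250 nM). The 0h group (n = 3) had PD17 and no 4OHT, the 2h group (n = 4) had 4OHT (250 nM) for 2 h, the 4h group (n = 4) had it for 4 h, and the rev group (n = 4) had 4OHT for 4 h and then a MEK inhibitor for 2 h. All groups share the construct, the medium and the 2 h in PD17. The labels do not say whether PD17 stayed on once 4OHT was added, nor which MEK inhibitor was used or at what dose. Every value against 0h may thus compare cells that also differ in FGF receptor inhibition. The samples came from 2 clones, clone 4 with 7 and clone 8 with 8, and 0h held only 1 sample of clone 4. No group had the extra 2 h without the MEK inhibitor, so the inhibitor and the added time cannot be told apart in rev. No group had 4OHT without the construct. The labels do not say that the samples of a clone came from separate cultures, so p-values measure the spread between these samples, which may be technical.

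The 4h libraries were the shallowest, with 1552022 to 6658950 counts against 8667880 to 13004556 in the others, and 3 counts stood for 0.683 to 1.83 CPM in them against 0.161 to 0.423 CPM elsewhere. CPM give each gene's counts relative to the size of its library, after scaling by the trimmed mean of M-values (TMM). Mitochondrial genes took 7.21% to 12.4% of the 4h counts and 2.67% to 6.98% of the others. All 7 EpiLC markers passed the filter, with a summed level of 818 to 864 CPM at 4h and 1016 to 1536 CPM in the other groups, of which Dnmt3b gave the largest share. The list split at 4h against 0h, with 2 called higher (Sox2 and Otx2) and 4 lower (Dnmt3b, Pou5f1, Fgf5 and Pou3f1). In this comparison 20.5% of all tested genes were called higher and 18.9% lower, which applies to every marker count at 4h against 0h below. Mean levels at 0h and 4h were 22.3 and 111 CPM for Sox2, 12.3 and 25.1 CPM for Otx2, and 935 and 416 CPM for Dnmt3b. The sums at 4h and in the other groups were 41.0 to 161 and 17.6 to 29.5 CPM for 6 naive markers, of which 5 of 6 tested were called higher at 4h against 0h. They were 37.9 to 50.8 and 3.46 to 11.3 CPM for 4 neural markers, of which 2 of 3 tested (Sox1 and Pax6) were called higher and Neurog2 had 0 counts in all 4h libraries. For 5 trophoblast markers they were 10.2 to 16.0 and 3.27 to 10.5 CPM, with 2 of 3 tested called higher and Elf5 at 0 counts in all 4h libraries. Group means elsewhere were at most 0.202 CPM for Neurog2 and 0.201 CPM for Elf5, under the level of 3 counts in any 4h library. Their 0 counts at 4h thus do not show a loss. Markers of mesendoderm and of primitive endoderm summed to at most 6.50 CPM in every library, and 0 of their 4 tested genes were called at 4h against 0h by edgeR or DESeq2 (0 at an unadjusted p under 0.05). In rev other cell type markers also moved. The mesendoderm sum was 3.84 to 6.50 CPM in rev, against 1.07 to 2.05 CPM at 0h and 1.13 to 2.72 CPM at 4h, and 2 of its 3 tested genes (Gsc and Foxa2) were called higher in rev against each, after 1 (Gsc) at 2h against 0h. The neural sum was 7.37 to 11.3 CPM in rev and 3.46 to 5.45 CPM at 0h, with Sox1 and Pax6 called higher in rev against 0h and lower against 4h. The trophoblast sum was 7.37 to 10.5 CPM in rev and 3.27 to 5.29 CPM at 0h. Of its 3 tested genes 1 was called higher in rev against 0h and 1 lower against 4h. The primitive endoderm sum was 3.38 to 5.16 CPM in rev and 2.27 to 2.79 CPM at 0h, and its 1 tested gene was not called in rev against either group. Of all tested genes 6.49% were called higher in rev against 0h. In rev against 4h 15.1% were called higher and 15.6% lower, and 3.98% were called higher at 2h against 0h. In bulk samples, fewer cells of a type and less RNA per cell cannot be told apart. The part of depth and of these markers in the 4h results, and of the markers in the rev results, was not tested.

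Erf rose early and stayed high, Etv5 rose late and fell back under the MEK inhibitor, and Elk4 rose at 2h and fell again by 4h. Ets2 rose and stayed up, Etv4 was lower at 2h and lowest in rev, and Ets1 was highest in rev. The upstream stretches of Etv5, Elk4 and Erf are shown as examples of these courses, chosen after the values were seen. They are RefSeq promoter windows (build GRCm38.p6, 250 bases before to 50 after an annotated start), trimmed to the bases before the start that lie in no annotated exon. Capitals mark matches on either strand to CGGAAG, an ETS core with its flank, or to TGAATG, the core of the sequence bound by Cic.
Etv5, chr16:22438369-22438618, minus strand: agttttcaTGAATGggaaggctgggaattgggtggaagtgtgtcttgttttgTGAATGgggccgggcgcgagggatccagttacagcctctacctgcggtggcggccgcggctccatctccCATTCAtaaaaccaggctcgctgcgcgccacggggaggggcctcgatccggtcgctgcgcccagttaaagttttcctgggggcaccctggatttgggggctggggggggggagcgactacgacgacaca
Elk4, chr1:132007370-132007606, plus strand: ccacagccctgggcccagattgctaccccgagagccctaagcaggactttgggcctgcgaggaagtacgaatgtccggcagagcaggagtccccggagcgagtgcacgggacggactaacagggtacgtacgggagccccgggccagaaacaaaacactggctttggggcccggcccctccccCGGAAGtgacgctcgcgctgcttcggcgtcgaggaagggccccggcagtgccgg
Erf, chr7:25250762-25251008, minus strand: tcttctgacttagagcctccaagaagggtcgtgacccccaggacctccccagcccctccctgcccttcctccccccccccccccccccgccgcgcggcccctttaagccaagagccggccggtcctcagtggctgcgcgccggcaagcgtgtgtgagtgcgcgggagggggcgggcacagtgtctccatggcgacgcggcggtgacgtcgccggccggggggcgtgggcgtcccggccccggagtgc
The table held 11 such windows for 8 of the 10 genes, and none for Etv4 or Ets1. Etv5 had 2 windows and Elk4 3, and of those of Etv5 the one shown is the one with matches. TGAATG was found in 1 of the 11, the Etv5 window shown, with 3 matches at -242, -198 and -129 bases from the start (its last match, in the orientation CATTCA, is on the other strand). Of 32851 windows of this length in the table, 12.7% held at least 1 match and 0.17% held at least 3. CGGAAG was found in 3 of the 11 windows, of Elk4 and Gabpa, and in 16.9% of all windows. The Elk4 stretch shown held 1, at -67 bases. A CArG box, the site of SRF, was in none of the 11 and in 1.63% of all. The letters overlap in no match, and a match describes the sequence only.

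Over the whole set, 4 of the 10 genes were called at 2h against 0h, 3 higher and 1 lower, where 3.98% of all tested genes were called higher and 2.46% lower. Called means an adjusted p under 0.05 in edgeR's quasi-likelihood test, by the Benjamini-Hochberg method over all 13451 genes. At 4h against 0h, 6 were called higher and 0 lower (0 lower by DESeq2, and 1, Etv6, at an unadjusted p under 0.05), against 20.5% higher and 18.9% lower among all tested genes. From 2h to 4h, 3 were called higher and 1 lower (19.7% and 19.2% of all). Between 4h and rev, 2 were called higher and 2 lower (15.1% and 15.6% of all). In rev against 0h, 4 were called higher and 1 lower (6.49% and 4.66% of all). The 10 genes had a median log2 fold change of 0.20 at 2h and 0.51 at 4h against 0h, beside 0.0067 and 0.026 over all tested genes. Their median between 4h and rev was -0.21, beside 0.016 over all. Comparisons with a group in common share its samples, and the counts are not independent of each other.

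Scaling by total counts in place of TMM moved the median of all tested genes on the log2 scale by -0.18 at 2h, -0.73 at 4h and -0.30 in rev against 0h, by -0.57 between 2h and 4h and by 0.45 between 4h and rev. Every direction given below for a called member was kept relative to that median, and values below are on the TMM scale. On total counts alone, without that reference, 1 member (Erf) was called higher at 4h against 0h and 3 were called lower, Etv4 (-0.96, adjusted p = 0.00623), Etv6 (-1.16, adjusted p = 0.000661) and Elk4 (-0.69, adjusted p = 0.0486). The 4h vs 0h values of Etv5, Elk1 and Gabpa and the 4h vs 2h value of Elk1 changed sign.

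**Figure D1:**
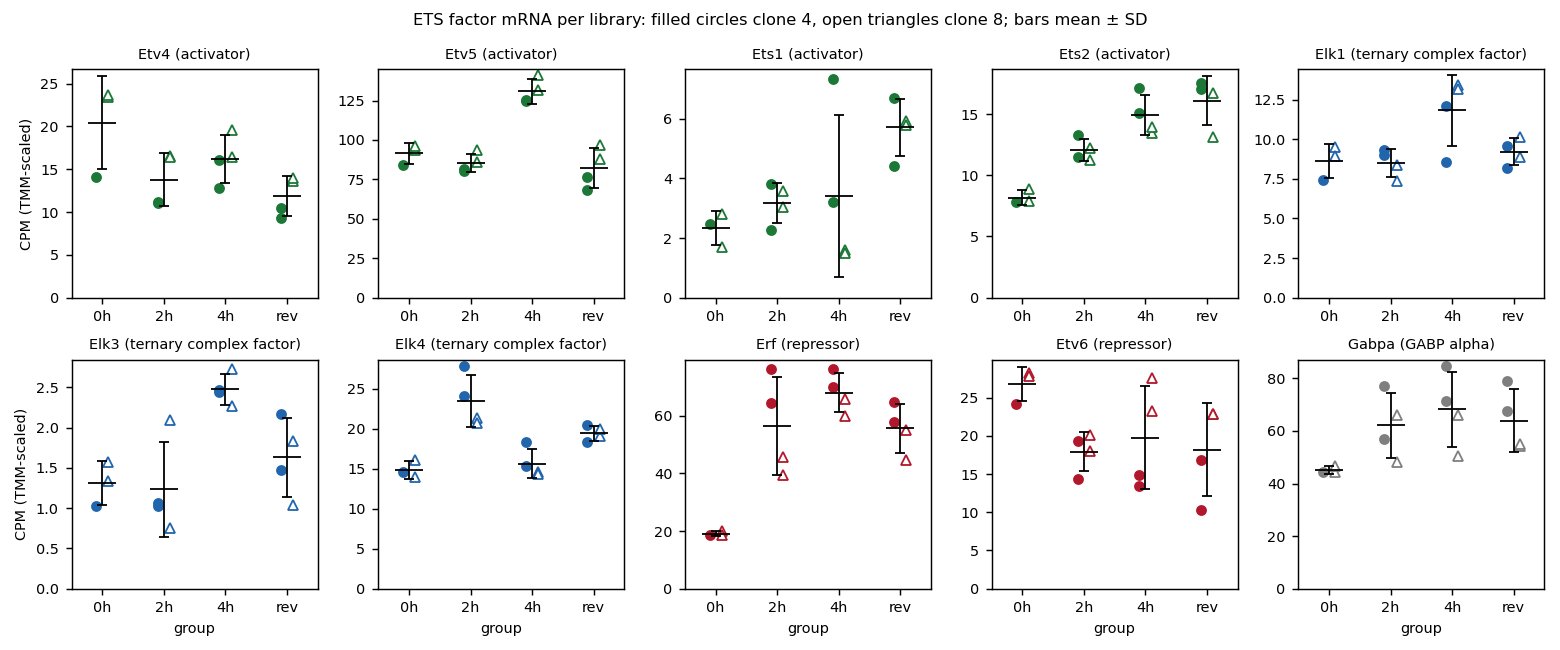
CPM on TMM-scaled libraries (vertical axis, linear from 0) for each of the 10 ETS factors in the groups 0h, 2h, 4h and rev. Filled circles are libraries of clone 4, open triangles libraries of clone 8, and bars give the mean with the SD (n = 3 at 0h, n = 4 elsewhere). Erf stands near 19.1 CPM at 0h and above 39 in all later libraries, Etv5 peaks at 4h, and Elk4 peaks at 2h.

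**Figure D2:**
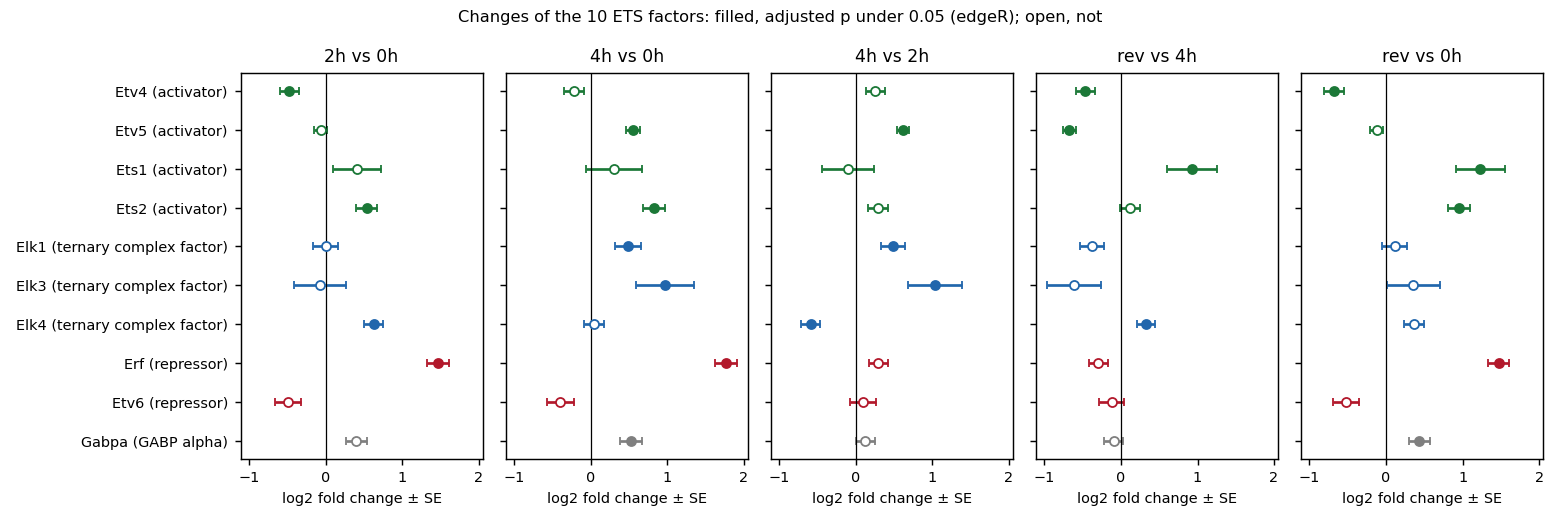
Log2 fold change with its SE (horizontal axis) of the 10 ETS factors in 5 comparisons. Filled points passed an adjusted p under 0.05 and open points did not. Erf has the largest rises at 2h and 4h (1.47 and 1.77), and the falls of Etv5 and Etv4 are the only called falls from 4h to rev.

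Among the activators, Etv5 (ENSMUSG00000013089, mm10 chr16:22381309-22439719, minus strand) was high at 4h alone. Per library, given here and below in the order clone4_1, clone8_1 and clone8_2 at 0h and clone4_1, clone4_2, clone8_1 and clone8_2 in the other groups, Etv5 had 84.2, 93.9 and 96.4 CPM at 0h. At 2h it had 80.4, 81.8, 93.6 and 86.0 CPM, and at 4h 125, 125, 141 and 132 CPM. In rev it had 68.2, 76.7, 97.0 and 87.8 CPM. The 4 libraries at 4h were above every other library, and 0h, 2h and rev overlapped. The log2 fold change was -0.07 (SE 0.0879, adjusted p = 0.728) at 2h against 0h and 0.55 (SE 0.0893, adjusted p = 5.82e-05) at 4h against 0h. Etv5 rose by 0.61 from 2h to 4h (SE 0.0816, adjusted p = 4.86e-06) and fell by 0.67 from 4h to rev (SE 0.0818, adjusted p = 2.36e-06). In rev against 0h it had -0.12 (SE 0.0876, adjusted p = 0.387). These 3 calls held without any single library. On total counts all 3 were lost, at 4h against 0h (-0.16, adjusted p = 0.639), from 2h to 4h (0.10, adjusted p = 0.769) and from 4h to rev (-0.30, adjusted p = 0.389). After thinning to the smallest library those from 2h to 4h (0.51, adjusted p = 0.211) and from 4h to rev (-0.54, adjusted p = 0.249) were lost.

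Etv4 (ENSMUSG00000017724, chr11:101769742-101785371, minus strand), the close relative of Etv5 in the PEA3 subfamily, was lower at 2h and in rev than at 0h. It had 14.1, 23.5 and 23.6 CPM at 0h and 11.0, 11.2, 16.6 and 16.4 CPM at 2h. At 4h it had 12.8, 16.0, 16.4 and 19.6 CPM, and in rev 10.5, 9.29, 13.7 and 14.0 CPM. All 4 rev libraries were below all 3 at 0h, while 2h and 4h overlapped 0h. Etv4 fell by 0.47 at 2h against 0h (SE 0.129, adjusted p = 0.0292), by 0.46 from 4h to rev (SE 0.126, adjusted p = 0.00739) and by 0.68 in rev against 0h (SE 0.130, adjusted p = 0.00146). At 4h against 0h its value was -0.22 (SE 0.134, adjusted p = 0.208), and from 2h to 4h it was 0.25 (SE 0.125, adjusted p = 0.112), which passed without 4h clone8_1 (0.34, adjusted p = 0.0442). The fall at 2h was lost without 0h clone8_1, 0h clone8_2, 2h clone4_2 or 2h clone8_1, with values of -0.44 to -0.48 and adjusted p from 0.0678 to 0.117. It was also lost in 3 of the 10 other settings. These were no clone covariate (-0.56, adjusted p = 0.160), total counts (-0.64, adjusted p = 0.352) and thinning (-1.08, adjusted p = 0.477). Both falls in rev held without any single library. That from 4h was lost in 4 of the 10 other settings, without the clone covariate (-0.46, adjusted p = 0.108), without a filter (-0.37, adjusted p = 0.105), on total counts (-0.021, adjusted p = 0.965) and after thinning to the smallest library (-0.23, adjusted p = 0.916). A difference between Etv4 and Etv5 was not tested.

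Ets2 (ENSMUSG00000022895, chr16:95702075-95721051, plus strand) rose and did not come back under the MEK inhibitor. Its levels were 7.77, 8.89 and 7.87 CPM at 0h and 11.5, 13.3, 12.2 and 11.2 CPM at 2h. They were 17.1, 15.1, 13.4 and 13.9 CPM at 4h and 17.0, 17.6, 13.1 and 16.7 CPM in rev. Every library with 4OHT was above every 0h library, and 4h lay above 2h without overlap. The log2 fold change against 0h was 0.54 at 2h (SE 0.139, adjusted p = 0.0215), 0.83 at 4h (SE 0.145, adjusted p = 0.000122) and 0.95 in rev (SE 0.141, adjusted p = 0.000111). The step from 2h to 4h (0.29, SE 0.131, adjusted p = 0.0790) and that from 4h to rev (0.12, SE 0.131, adjusted p = 0.517) did not pass. The 2h call was lost without 0h clone4_1 (0.44, adjusted p = 0.209), and without 0h clone8_2, 2h clone4_2 or 2h clone8_1 (0.50 to 0.52, adjusted p 0.0618 to 0.0761). Those at 4h and in rev held without any single library. Every call of Ets2 against 0h was lost on total counts and after thinning. On total counts the value was 0.34 at 2h (adjusted p = 0.790) and 0.096 at 4h (adjusted p = 0.811). In rev it was 0.64 there (adjusted p = 0.224). After thinning the value was 0.40 at 2h (adjusted p = 0.924) and -0.0090 at 4h (adjusted p = 0.996). In rev it was then 0.61 (adjusted p = 0.801).

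Ets1 (ENSMUSG00000032035, chr9:32636221-32757820, plus strand) was scarce, with 4 to 65 counts per library, and was highest in rev. It had 2.48, 2.81 and 1.70 CPM at 0h and 2.27, 3.80, 3.58 and 3.05 CPM at 2h. At 4h it had 7.33, 3.21, 1.59 and 1.51 CPM, from 12, 13, 7 and 4 counts. In rev it had 4.41, 6.71, 5.92 and 5.81 CPM. All rev libraries were above all 0h and 2h libraries, while the 4h libraries spread across the range, those of clone 4 above those of clone 8. Ets1 rose by 1.23 in rev against 0h (SE 0.314, adjusted p = 0.0138) and by 0.93 from 4h to rev (SE 0.330, adjusted p = 0.0369). The values at 2h (0.41, SE 0.313, adjusted p = 0.491) and 4h (0.31, SE 0.365, adjusted p = 0.535) against 0h did not pass. The first call was lost without 0h clone4_1, 0h clone8_2 or rev clone8_2 (1.08 to 1.17, adjusted p 0.0513 to 0.103). The second was lost without 4h clone4_2, 4h clone8_1, 4h clone8_2, rev clone4_2, rev clone8_1 or rev clone8_2 (0.65 to 0.92, adjusted p 0.0776 to 0.177). The first was also lost on total counts (0.85, adjusted p = 0.141), and the second without the clone covariate (0.91, adjusted p = 0.0653).

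Of the 3 ternary complex factors, Elk4 was called higher at 2h, while Elk1 and Elk3 were called higher at 4h, against both 0h and 2h. A difference between these genes was not tested. None of them was called in rev against 0h by the main edgeR fit or by DESeq2 (unadjusted p under 0.05 in edgeR in 1 of 3, Elk4). Elk4, also known as SAP-1 (ENSMUSG00000026436, chr1:132007607-132032612, plus strand), had 14.5, 16.1 and 13.9 CPM at 0h, 24.1, 27.9, 21.3 and 20.7 CPM at 2h and 18.3, 15.3, 14.6 and 14.3 CPM at 4h. In rev it had 18.4, 20.4, 19.0 and 19.9 CPM. The 2h libraries were above all others, 4h overlapped 0h, and rev lay between, above all of 0h and 4h and below all of 2h. Elk4 rose by 0.63 at 2h (SE 0.126, adjusted p = 0.00330) and fell by 0.59 from 2h to 4h (SE 0.119, adjusted p = 0.000500), and was then 0.04 from 0h (SE 0.129, adjusted p = 0.832). It rose again by 0.33 from 4h to rev (SE 0.120, adjusted p = 0.0427), and in rev it was 0.36 from 0h (SE 0.125, adjusted p = 0.0618). The value in rev against 0h was called higher in 3 of the 10 other settings. These were the legacy fit (0.36, adjusted p = 0.0411), only the groups compared (0.37, adjusted p = 0.0204), and leaving out the 20 most abundant and mitochondrial genes (0.35, adjusted p = 0.0424). The fall from 2h to 4h held without any single library, and was lost after thinning (-0.074, adjusted p = 0.956). The 2h call was lost without 0h clone4_1 (0.55, adjusted p = 0.0573), and the call in rev against 4h without 4h clone4_2, 4h clone8_1, 4h clone8_2, rev clone4_2, rev clone8_1 or rev clone8_2 (0.29 to 0.35, adjusted p 0.0582 to 0.117). The 2h call was also lost on total counts (0.42, adjusted p = 0.687) and after thinning (0.88, adjusted p = 0.535). The call in rev against 4h was also lost in 7 of the 10 other settings. These were DESeq2, the legacy fit, no clone covariate, only the groups compared, leaving out the 20 most abundant and mitochondrial genes, and total counts (0.32 to 0.72, adjusted p 0.0515 to 0.0903), and thinning (-0.70, adjusted p = 0.539).

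Elk1 (ENSMUSG00000009406, chrX:20933395-20950608, minus strand) was called higher at 4h, against 0h and against 2h. It had 7.45, 9.49 and 8.96 CPM at 0h, 9.31, 9.02, 8.37 and 7.34 CPM at 2h, 8.55, 12.1, 13.4 and 13.2 CPM at 4h and 8.20, 9.60, 8.88 and 10.2 CPM in rev. Of the 4h libraries, 3 were above all others, and 4h clone4_1, the shallowest library, lay within the range of 0h, 2h and rev. The log2 fold change was 0.0014 at 2h (SE 0.164, adjusted p = 0.997) and 0.49 at 4h (SE 0.169, adjusted p = 0.0255), each against 0h, and 0.49 from 2h to 4h (SE 0.157, adjusted p = 0.0175). Between 4h and rev it was -0.37 (SE 0.157, adjusted p = 0.0752), and in rev against 0h 0.11 (SE 0.163, adjusted p = 0.697). The call at 4h against 0h was lost without 0h clone4_1, 0h clone8_2, 4h clone4_2, 4h clone8_1 or 4h clone8_2 (0.39 to 0.46, adjusted p 0.0613 to 0.149). It was also lost in 4 of the 10 other settings. These were no filter (adjusted p = 0.197), the replicate block (0.0521), total counts (0.470) and thinning (0.0849). The call against 2h was lost without 2h clone8_2 or 4h clone8_1 (0.39 and 0.44, adjusted p = 0.0720 and 0.0514). It was also lost in 4 of the 10 other settings. These were no filter (adjusted p = 0.131), only the groups compared (0.0518), total counts (0.874) and thinning (0.382).

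Elk3 (ENSMUSG00000008398, chr10:93247414-93311135, minus strand), known as Net and able to repress when ERK is off, was read with the fewest counts of the 3. The 4h libraries held 4, 10, 12 and 6 counts of it, and the others 9 to 24. In CPM it had 1.03, 1.34 and 1.57 at 0h and 1.02, 1.06, 2.09 and 0.75 at 2h. These rose to 2.44, 2.47, 2.73 and 2.26 CPM in the 4h libraries, and stood at 1.47, 2.17, 1.83 and 1.04 CPM in rev. The 4h values were above all others, although each rests on at most 12 counts. Elk3 rose by 0.97 at 4h against 0h (SE 0.377, adjusted p = 0.0455) and by 1.04 against 2h (SE 0.357, adjusted p = 0.0252). It had -0.61 between 4h and rev (SE 0.353, adjusted p = 0.202), and 0.36 in rev against 0h (SE 0.344, adjusted p = 0.543). The call against 0h was lost when any 1 of the 7 libraries of the comparison was left out (0.79 to 1.03, adjusted p 0.0594 to 0.190). It was also lost in 5 of the 9 other settings that tested it. These were DESeq2 (adjusted p = 0.0662), no clone covariate (0.0594), the replicate block (0.0791), no filter (0.105) and total counts (0.753). The call against 2h was lost without 2h clone4_1, 2h clone4_2, 2h clone8_2, 4h clone4_2 or 4h clone8_1 (0.79 to 1.01, adjusted p 0.0564 to 0.0906), and on total counts (0.44, adjusted p = 0.423).

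Of the repressors, Erf (ENSMUSG00000040857, chr7:25242561-25250761, minus strand), which ERK moves to the cytoplasm by phosphorylation, gave the largest rise of the 10 genes. It had 18.5, 20.0 and 18.8 CPM at 0h and 76.5, 64.5, 39.6 and 45.8 CPM at 2h. At 4h it had 76.4, 70.1, 60.1 and 66.0 CPM, and in rev 65.0, 57.8, 55.1 and 44.7 CPM. The lowest library with 4OHT held 39.6 CPM and the highest at 0h 20.0 CPM, and 2h, 4h and rev overlapped. The rise was 2.77-fold at 2h (log2 1.47, SE 0.140, adjusted p = 5.25e-07) and 3.40-fold at 4h (log2 1.77, SE 0.142, adjusted p = 6.08e-09). In rev Erf was still 2.77-fold above 0h (log2 1.47, SE 0.140, adjusted p = 6.82e-07), after a change from 4h of -0.30 (SE 0.123, adjusted p = 0.0740). The step from 2h to 4h, 0.30 (SE 0.124, adjusted p = 0.0619), passed without 2h clone4_1 (0.40, adjusted p = 0.0145). The 3 calls against 0h held without any single library and under all 10 other settings.

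Etv6 (ENSMUSG00000030199, chr6:134035700-134270158, plus strand), also called TEL, had values on the other side of 0 and passed in no comparison of groups, although near the threshold. It had 24.2, 28.2 and 27.9 CPM at 0h, 14.3, 19.4, 20.1 and 18.1 CPM at 2h, 13.4, 14.8, 23.2 and 27.5 CPM at 4h, and 10.2, 16.8, 22.8 and 22.9 CPM in rev. All 2h and rev libraries were below all 0h libraries, and at 4h the clone 8 libraries were near 0h. The log2 fold change against 0h was -0.49 at 2h (SE 0.170, adjusted p = 0.0888), -0.40 at 4h (SE 0.174, adjusted p = 0.0741) and -0.52 in rev (SE 0.169, adjusted p = 0.0503). The value in rev was called in 8 of the 10 other settings, among them DESeq2 (-0.55, adjusted p = 0.0271), and those at 2h and at 4h in 4 of the 10 each. The value at 2h also passed without 2h clone4_2 (-0.64, adjusted p = 0.0333), and that at 4h without 4h clone8_2 (-0.53, adjusted p = 0.0307). Steps between the later groups were small, 0.09 from 2h to 4h (SE 0.165, adjusted p = 0.684) and -0.12 from 4h to rev (SE 0.164, adjusted p = 0.615).

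Gabpa (ENSMUSG00000008976, chr16:84834925-84863779, plus strand), whose product needs a GABP beta partner to activate, was higher in every library with 4OHT than in any without. It had 44.3, 44.4 and 46.8 CPM at 0h, 57.1, 77.3, 66.1 and 48.2 CPM at 2h, 71.5, 84.9, 50.5 and 66.0 CPM at 4h, and 67.6, 79.2, 54.1 and 55.0 CPM in rev. The 3 later groups overlapped each other. Gabpa rose by 0.53 at 4h (SE 0.139, adjusted p = 0.00477) and by 0.43 in rev (SE 0.138, adjusted p = 0.0449), each against 0h. At 2h the value was 0.40 (SE 0.137, adjusted p = 0.0845), from 2h to 4h 0.13 (SE 0.126, adjusted p = 0.455) and from 4h to rev -0.09 (SE 0.126, adjusted p = 0.618). The 4h call was lost without 0h clone4_1 (0.38, adjusted p = 0.0742), on total counts (-0.18, adjusted p = 0.598) and after thinning (0.53, adjusted p = 0.323). The rev call was lost when any 1 of its 7 libraries was left out (0.29 to 0.49, adjusted p 0.0567 to 0.345). It was also lost in 5 of the 10 other settings. These were RLE scaling (adjusted p = 0.0554), the replicate block (0.0597), no clone covariate (0.0915), total counts (0.824) and thinning (0.513).

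Levels between genes were compared as CPM per kilobase of merged exon (GENCODE M21). At 0h Etv5 stood first with 22.3 ± 1.57 (SD, n = 3), followed by Gabpa at 7.94 ± 0.247, Etv4 at 6.58 ± 1.75, Erf at 5.29 ± 0.217 and Etv6 at 4.47 ± 0.372 CPM per kilobase. Elk4 (2.32 ± 0.176), Elk1 (1.60 ± 0.197) and Ets2 (1.42 ± 0.107) came next, and Elk3 (0.288 ± 0.0605) and Ets1 (0.275 ± 0.0674) were last. Neighbours in this order overlapped for Etv4 and Erf, for Elk1 and Ets2 and for Elk3 and Ets1. Erf moved from rank 4 at 0h to rank 2 in each later group, at 15.7 ± 4.70 at 2h, 18.9 ± 1.90 at 4h and 15.4 ± 2.33 CPM per kilobase in rev (SD, n = 4). At 2h and in rev its libraries overlapped those of Etv5 above and Gabpa below, and at 4h they overlapped neither. Etv5 stayed first, with 31.9 ± 1.86 CPM per kilobase at 4h. At 4h Etv6, Ets2, Elk4 and Elk1 followed each other with overlapping libraries.

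**Figure D3:**
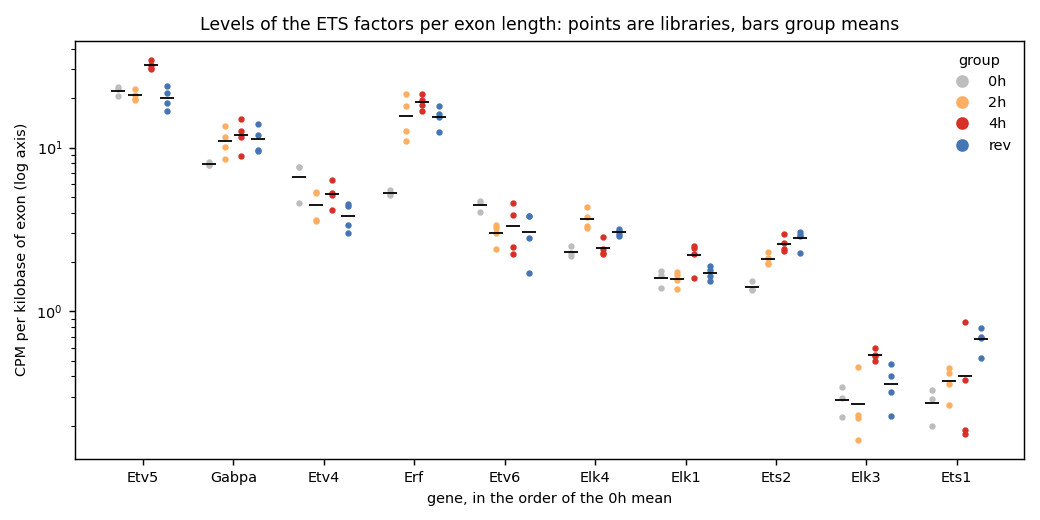
CPM per kilobase of exon (vertical axis, log scale) of the 10 ETS factors, in the order of their 0h mean, with 1 point per library coloured by group and a bar at each group mean. Etv5 is first in every group, Erf moves from 5.29 to 18.9 between 0h and 4h, and Ets1 and Elk3 stay below 1.

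Between the clones, 5 of the 10 genes differed in level over all groups, where 18.5% of tested genes did. Etv4 (log2 0.51, SE 0.0913, adjusted p = 0.000413), Etv6 (0.51, SE 0.119, adjusted p = 0.00469) and Etv5 (0.20, SE 0.0600, adjusted p = 0.0209) were higher in clone 8. Erf (-0.33, SE 0.0918, adjusted p = 0.0141) and Gabpa (-0.29, SE 0.0932, adjusted p = 0.0320) were lower in clone 8. The count fell to 3 without rev clone4_2 or rev clone8_1.

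Whether the clones changed alike was tested where both had 2 libraries on each side. In the clone difference from 2h to 4h edgeR called 0 of the 10 (3.14% of all tested genes were called), 3 had an unadjusted p under 0.05, and DESeq2 called 0. In the clone difference from 4h to rev it also called 0 (2.8% of all), 1 had an unadjusted p under 0.05, and DESeq2 called 0. Without 4h clone4_2, 1 of the 10 was called in each. Ets1 had the largest clone difference in both: from 2h to 4h its log2 fold change was 0.66 (SE 0.394) in clone 4 and -1.08 (SE 0.433) in clone 8, a difference of -1.73 (SE 0.587, unadjusted p = 0.00813, adjusted p = 0.138). From 4h to rev it was 0.19 (SE 0.381) in clone 4 and 1.90 (SE 0.428) in clone 8, a difference of 1.71 (SE 0.580, unadjusted p = 0.00823, adjusted p = 0.144). Both rest on 4 to 13 counts per 4h library. Erf went from 2h to 4h by 0.05 (SE 0.139) in clone 4 and 0.56 (SE 0.139) in clone 8 (adjusted p of the difference = 0.215), and Etv6 by -0.25 (SE 0.209) and 0.41 (SE 0.200) (adjusted p = 0.288). At 2h against 0h, where clone 4 had a single 0h library, Erf rose by 1.93 (SE 0.186) in clone 4 and 1.14 (SE 0.141) in clone 8 (adjusted p of the difference = 0.329).

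Etv5 had close values in both clones, 0.62 (SE 0.112) and 0.61 (SE 0.111) from 2h to 4h, a difference of -0.02 (SE 0.157, adjusted p = 0.972). From 4h to rev it had -0.79 (SE 0.112) and -0.56 (SE 0.111). At 2h against 0h Elk4 had 0.84 (SE 0.193) in clone 4 and 0.48 (SE 0.154) in clone 8. It fell from 2h to 4h by 0.64 (SE 0.162) in clone 4 and 0.54 (SE 0.159) in clone 8. Ets2 had 1.04 (SE 0.230) and 0.70 (SE 0.185) at 4h against 0h, and Gabpa 0.82 (SE 0.216) and 0.35 (SE 0.171).

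**Figure D4:**
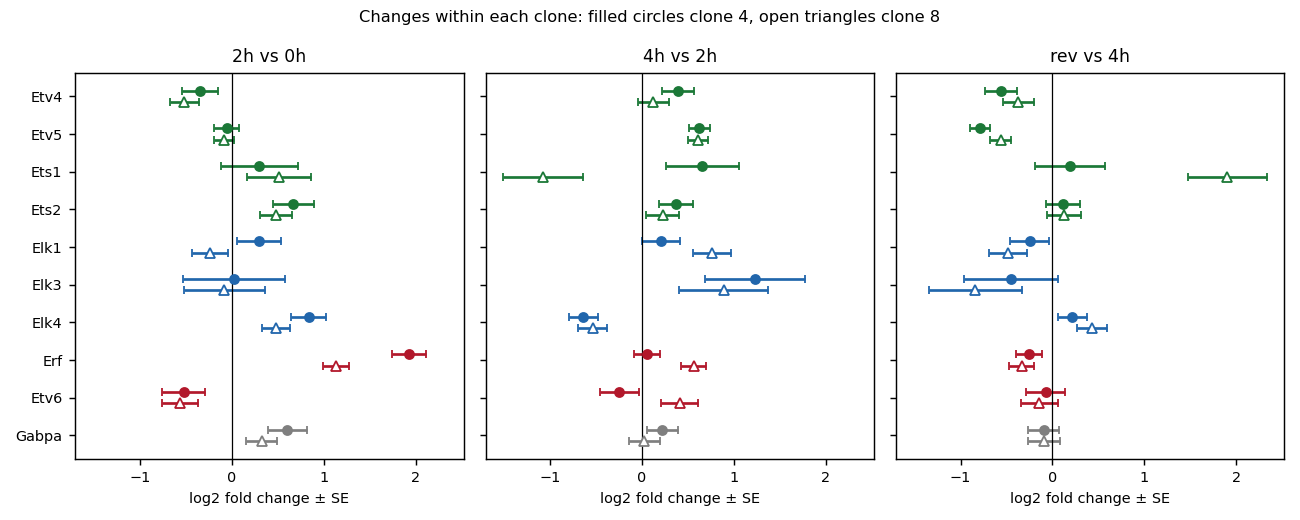
Log2 fold change with its SE (horizontal axis) of each ETS factor within clone 4 and within clone 8, for the steps from 0h to 2h, from 2h to 4h and from 4h to rev. The clones lie close together for Etv5 from 2h to 4h (0.62 and 0.61) and far apart for Ets1 between 2h and 4h (0.66 and -1.08) and between 4h and rev (0.19 and 1.90), where no difference passed after adjustment.

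The other ETS genes, the partners and the regulators of these factors were counted in lists. Of 17 other ETS genes, 6 were tested (Etv1, Etv3, Elf1, Elf2, Elf3 and Elf4). At 2h against 0h edgeR and DESeq2 each called 0 of the 6, and 0 had an unadjusted p under 0.05 in edgeR. At 4h against 0h, 4 were called higher and 0 lower (0 lower by DESeq2, and 0 at an unadjusted p under 0.05), where 20.5% of all tested genes were called higher and 18.9% lower, with a median log2 fold change of 0.75 beside 0.026 over all tested genes. Etv1, the remaining PEA3 factor beside Etv4 and Etv5, had the largest rise, from 3.05 ± 0.418 CPM (SD, n = 3) to 8.12 ± 2.24 CPM (SD, n = 4), a log2 fold change of 1.40 (SE 0.248, adjusted p = 0.000142). In rev against 4h 3 of the 6 were called lower, with the largest fall in Elf4 (-1.31, SE 0.303, adjusted p = 0.00228), from 3.93 ± 0.633 to 1.60 ± 0.322 CPM (SD, n = 4 each). In rev Etv1 stood at 3.52 ± 0.455 CPM (SD, n = 4). Unlike Etv1 and Etv5, Etv4 was not called at 4h against 0h. The difference between these genes was not tested.

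Of 5 tested partners (Srf, its coactivators Mrtfa and Mrtfb, and the GABP beta subunits Gabpb1 and Gabpb2), edgeR and DESeq2 each called 0 at 2h against 0h, and 1 (Mrtfa, chosen after its value was seen) had an unadjusted p under 0.05 in edgeR. There were 2 called higher at 4h against 0h (20.5% of all tested genes), the larger in Mrtfb (0.64, SE 0.131, adjusted p = 0.000592). From 4h to rev 3 were called lower (15.6% of all), the largest fall again in Mrtfb (-0.53, SE 0.120, adjusted p = 0.00177). Mrtfb stood at 20.1 ± 2.53 CPM (SD, n = 3) at 0h, 31.4 ± 2.21 at 4h and 21.7 ± 1.32 CPM in rev (SD, n = 4 each). Neither beta subunit passed at 4h against 0h, where Gabpa did.

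Cic and its partner proteins Atxn1 and Atxn1l were put in a list with Cop1, Det1, Dda1, Ddb1 and Cul4a, the ubiquitin ligase that degrades PEA3 factors. All 8 were tested. At 2h against 0h edgeR and DESeq2 each called 0, and 1 (Atxn1l) had an unadjusted p under 0.05 in edgeR. At 4h against 0h, 2 were called higher and 3 lower, where 20.5% and 18.9% of all tested genes were, led by Dda1 (0.53, SE 0.131, adjusted p = 0.00282) and Cul4a (-0.38, SE 0.0977, adjusted p = 0.00361). From 4h to rev 2 were called in each direction (15.1% of all tested genes higher and 15.6% lower), led by Atxn1l (0.35, SE 0.112, adjusted p = 0.0218) and Det1 (-0.61, SE 0.219, adjusted p = 0.0381).

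Genes held to be targets were counted in 2 further lists, which were not tested against the ETS genes. Of 12 SRF and ternary complex factor targets, 9 were called higher at 2h and 0 lower (0 by DESeq2, and 0 at an unadjusted p under 0.05). Of all tested genes 3.98% were called higher there and 2.46% lower. The targets had a median log2 fold change of 4.06, which was the same with Egr3 and Egr4 at their lower bounds, beside 0.0067 over all tested genes. The largest was Egr3, an immediate early zinc finger factor, at 98.0 ± 51.3 CPM (SD, n = 4) and at or under 1 count in each 0h library, at least 405-fold higher (against 3 counts, taken as the mean of the 0h libraries, 0.242 CPM). From 2h to 4h 10 of the 12 were called lower and 0 higher (0 by DESeq2, and 0 at an unadjusted p under 0.05). Of all tested genes 19.2% were called lower and 19.7% higher in this step. Over the same interval Elk4 was called lower, while Elk1 and Elk3 were called higher. At 4h against 0h, 8 were called higher and 1, the survival gene Mcl1, lower (-0.81, SE 0.113, adjusted p = 9.79e-06), where 20.5% and 18.9% of all tested genes were. Egr3 was then at 28.8 ± 30.0 CPM (SD, n = 4), with 2.64 to 55.6 CPM per library. Its mean was at least 119-fold higher, a bound that does not hold for each library. In rev against 4h, 3 were called higher and 0 lower (0 by DESeq2, and 2 at an unadjusted p under 0.05), where 15.1% and 15.6% of all tested genes were. The median was -0.024 beside 0.016 over all tested genes. The 3 targets called higher were Egr2, Mcl1 and Egr4 (adjusted p = 0.0274, 0.000466 and 0.00716). Egr4 had 10 to 55 counts per library in rev and 0 to 5 at 4h, where its mean of 0.461 CPM lay under that of 3 counts per library (1.10 CPM), and no fold is given for it.

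Of 8 genes held to be repressed by Cic, which include Etv1, 4 were called higher and 1 lower at 2h, 7 higher and 1 lower at 4h against 0h, and 0 higher and 6 lower from 4h to rev (0 higher by DESeq2, and 0 at an unadjusted p under 0.05). The matching shares over all tested genes were 3.98% (higher) and 2.46% (lower) for 2h against 0h. These shares were 20.5% and 18.9% for 4h against 0h, and 15.1% and 15.6% for rev against 4h. Spry4, an inhibitor of receptor signalling, led the rises at 2h (6.51, SE 0.185, adjusted p = 9.67e-17) and 4h (6.10, SE 0.183, adjusted p = 3.33e-16) and the falls to rev (-2.26, SE 0.128, adjusted p = 6.01e-11). Its level went from 0.856 ± 0.123 CPM (SD, n = 3) at 0h to 91.1 ± 34.5 at 2h, 70.4 ± 34.2 at 4h and 14.0 ± 4.28 CPM in rev (SD, n = 4 each). Ccnd1, a cell cycle cyclin, was the gene called lower at 2h (-0.55, SE 0.113, adjusted p = 0.00400) and at 4h (-0.34, SE 0.115, adjusted p = 0.0214). Etv5 and Etv4, themselves held to be repressed by Cic, were not called higher at 2h.

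**Figure D5:**
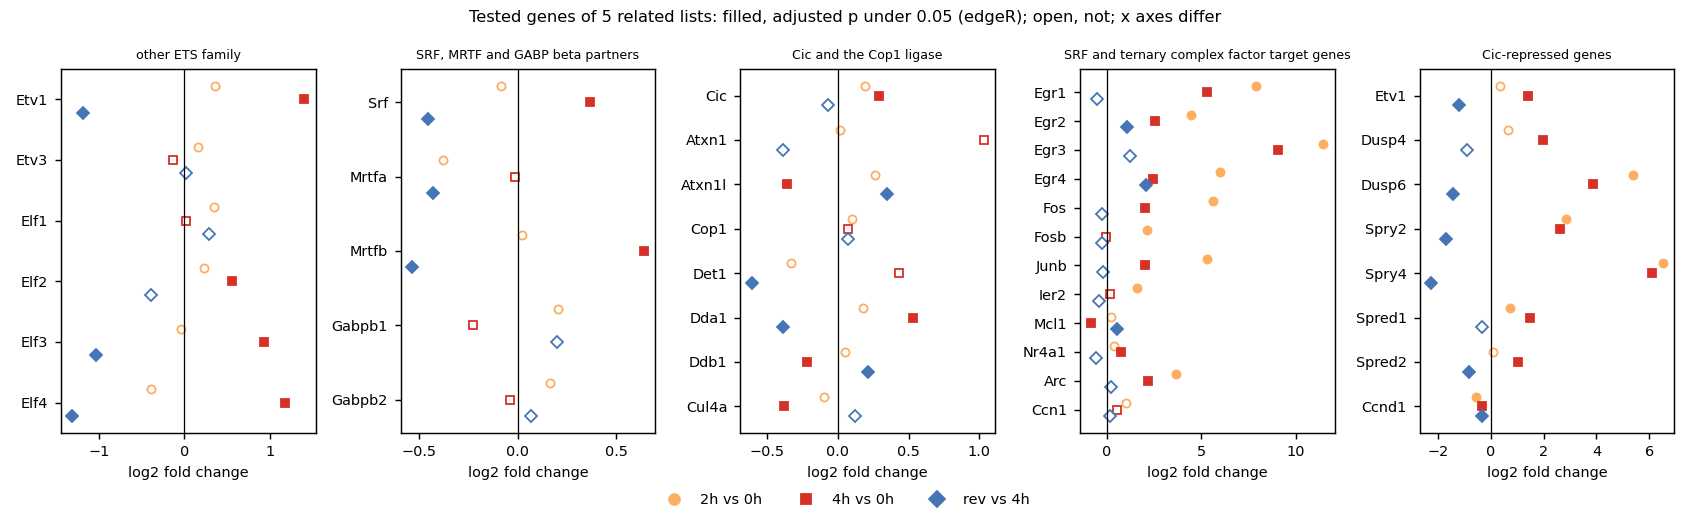
Log2 fold change (horizontal axes, which differ between panels) of each tested gene of 5 related lists, with circles for 2h against 0h, squares for 4h against 0h and diamonds for rev against 4h. Filled symbols passed an adjusted p under 0.05 and open symbols did not. In the Cic-repressed list Spry4 reaches 6.51 at 2h, while Etv1 stands at 1.40 at 4h and -1.18 in rev. Points of Egr3 and Egr4 against 0h are fitted values for genes with at most 2 counts per 0h library and are no bound.

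The genes whose profile over the 15 libraries was most like that of a member were ranked for Erf, Elk3 and Ets1, the 3 members with the largest called changes. Likeness was the root mean square difference between log2 CPM profiles, each centred on its own mean, over 12291 tested genes with a mean of at least 1 CPM, and it is a description. Nearest to Erf were Nemp1 (0.249), Slc39a14 (0.301) and Trim71 (0.303), beside an SD of Erf itself of 0.698. All 3 were called higher at 2h and 4h against 0h, Nemp1 by 1.08 (adjusted p = 1.13e-05) and 1.40 (adjusted p = 5.25e-08). From 4h to rev Slc39a14 was called lower (-0.76, adjusted p = 2.27e-06), and Trim71 was 0.03 there (adjusted p = 0.797). Nearest to Ets1, with an SD of 0.677, were D1Ertd622e (0.230), Gm37303 (0.356) and C2cd2l (0.373). Nearest to Elk3, with an SD of 0.496, were Arxes2 (0.264), Myo9a (0.270) and Gm14443 (0.274), which were called higher at 4h against 0h by 0.92, 0.62 and 1.02 (adjusted p = 0.0239, 0.00231 and 0.000655).

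Strand handling is not given in the sources used here, so reads of genes that share exon bases could be split or lost. Elk1 shares 76 exon bases with Uxt and Elk4 104 with Gm29103, on the same strand. On the other strand Elk3 shares 316 with Cdk17, Elk4 84 with Mfsd4a, Etv6 135 with Gm17089 and Gabpa 397 with Atp5j. Etv4, Etv5, Ets1, Ets2 and Erf share none in GENCODE M21.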

How the data were processed

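RNA of 15 samples was sequenced after ribosomal RNA depletion (NEBNext kits, per the labels' protocols). The authors deposited raw counts per gene, and the submitters' processing notes name bcl2fastq 2.19.1, STAR 2.5.3a and mm10. The counting tool, its annotation and its use of strand are not given in the sources used here. The authors discarded 1 sample of 0h in quality control, per the series' design text, and it was not analysed here. Gene names, positions and exon lengths came from GENCODE M21 (GRCm38), which held 52489 of the 52636 identifiers.

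The fits used edgeR 4.0.16 under R 4.3.3, with filterByExpr (at least 10 counts, 15 in total), TMM scaling, group means with clone as an additive covariate over all 15 samples, and the two-sided quasi-likelihood F test with robust estimation. P-values were adjusted over all 13451 tested genes, and SEs follow from the F statistic. Clone differences used a model of cell means, 1 per combination of group and clone. The steps were tested on simulated data. Alternatives were RLE and total-count scaling, leaving out the 20 most abundant and mitochondrial genes, no filter, DESeq2 1.42.0, a replicate block, no clone covariate, only the groups compared, thinning to the smallest library and leaving out each library. The edgeR legacy fit was added after seeing the data.

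All 10 members are named. Of each related list, the called genes with the largest log2 fold change in each direction are named, at 2h and 4h against 0h and in rev against 4h, and the nearest profiles are given for the 3 members with the largest called change. The members, lists and comparisons were chosen with earlier results of these data known, so counts over them are descriptions. Reads carry no molecular identifiers, and floors of 3 counts cover counting error only. No pair of libraries of a clone and group held identical counts.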

Additional observations from a re-analysis of the deposited data

How the results depend on the processing

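Of 860 values of single members under an alternative, 686 kept their direction and side of the threshold. With the sign kept, 97 lost a call and 29 gained one. The other 48 changed sign, and some of these also changed call. At 4h against 0h on total counts, Etv5 lost its call in this way and Elk4 gained one. Of 144 counts of called members, 114 stayed within 1.5 times. Erf against 0h at 2h, 4h and rev kept its direction and call under every alternative run. The cause of the changes below was not tested unless the setting itself names it.

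With total counts, which leave the shift of the median gene in place, the number of called members was 1 at 2h and 3 in rev against 0h, 1 at 4h against 2h, 1 in rev against 4h, and 0 for the level of the clones. At 4h against 0h it was 4, with 1 higher (Erf) and 3 lower (Etv4, Etv6 and Elk4). The sign of Elk1 changed at 2h (-0.21), 4h (-0.28) and rev (-0.20) against 0h, at 4h against 2h (-0.068) and in rev against 4h (0.076). Signs also changed at 4h against 0h for Etv5 (-0.16), Ets1 (-0.48), Elk4 (-0.69) and Gabpa (-0.18), at 4h against 2h for Etv4 (-0.32), Ets2 (-0.25), Erf (-0.20), Etv6 (-0.44) and Gabpa (-0.40), and in rev against 4h for Erf (0.082), Etv6 (0.28) and Gabpa (0.31).

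After thinning, which leaves fewer counts, 1 member was called at 2h, 2 at 4h and 1 in rev against 0h, 0 at 4h against 2h, 0 in rev against 4h and 0 between the clones. Etv5 turned to 0.28 at 2h and 0.25 in rev, and Ets2 to -0.0090 at 4h, against 0h. Ets2 turned to -0.41 at 4h against 2h, and Elk4 (-0.70) and Gabpa (0.0026) turned in rev against 4h. Elk3 and Ets1 had too few counts to be tested there. Without the clone covariate 1 member was called in rev against 4h.

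Elk1 at 2h against 0h, near 0 throughout, turned to -0.0081 (RLE), -0.029 (without the 20 most abundant and mitochondrial genes), -0.014 (no filter), -0.033 (replicate block), -0.022 (no clone covariate), -0.033 (only the groups compared), -0.012 (legacy fit) and -0.024 (DESeq2). Without a filter Elk4 turned to -0.088 at 4h against 0h and Etv6 to -0.010 at 4h against 2h.

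Leaving out single libraries gave 2 to 5 called members at 2h, 3 to 5 at 4h and 3 to 4 in rev against 0h, 2 to 4 at 4h against 2h, 2 to 5 in rev against 4h, 0 to 1 for each clone difference and 3 to 5 between the clones. It changed signs of uncalled values: Elk1 (-0.090 to 0.11) and Elk3 (-0.49 to 0.19) at 2h against 0h, Ets1 (-0.15 to 0.57) and Elk4 (-0.045 to 0.12) at 4h against 0h, Ets1 (-0.56 to 0.17) and Etv6 (-0.016 to 0.21) at 4h against 2h, and Etv6 (-0.19 to 0.029) in rev against 4h.

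The labels number libraries within a clone. The difference between the 2 libraries of a clone and group was correlated between groups, with values of -0.194 to 0.261 over 9 pairs of groups. The highest was for clone 4 and the lowest for clone 8, each between 2h and rev. These correlations cannot settle whether same-numbered libraries shared a culture or batch. With the replicate block 4 members were called at 2h, 5 at 4h and 5 in rev against 0h, and 4 in each of the other steps, against 4, 6, 5 and 4 without it. The block ended the calls of Elk1 (adjusted p = 0.0521) and Elk3 (0.0791) at 4h and of Gabpa in rev (0.0597), and added Etv6 at 4h (0.0390) and in rev (0.0321), all against 0h.

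The 4h libraries held between 4 and 13 counts of Elk3 and Ets1, so counting error is wide for both there.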
